A study of Mus musculus with 12 samples.

Results

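The genes described here encode actin, the proteins that crosslink, cap and move its filaments, the scaffold of focal adhesions and signalling proteins that act on them, with SRF, 48 mouse genes chosen by symbol. Every probe set paired with exactly 1 of these genes on the Affymetrix chips MOE430A and MOE430B was taken: 124 probe sets, 96 on MOE430A and 28 on MOE430B, and 6 control probe sets for Actb, out of 45265 probe sets in all. Of the 48 genes, 47 had such a probe set, and 45 were bright enough to test, against 14977 tested genes of 18193 in the whole series. Pdlim3 and Lmod1 lay below the background on every array and under the filter on dim probe sets, and Rock2 was not analysed here.

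Total RNA of mouse mammary cells was compared in 2 states. The differentiated samples came from mammospheres induced to differentiate for 6 days on dishes coated with collagen. Their medium was DMEM rich in glucose, with fetal bovine serum at 5%, and their estimated make-up was 50% myoepithelial and 50% luminal cells. The undifferentiated samples were mammospheres at passage 3, which are floating spheres believed to hold stem and progenitor cells, grown in DMEM and F12 with B-27, basic FGF, EGF and heparin, at an estimated purity of 90% with 10% myoepithelial cells. Each state had 3 RNA samples, numbered 1, 2 and 4, each hybridised to both chips, which makes 12 arrays. The labels do not say that the 3 samples came from separate cultures or animals, so the p-values measure the spread between these samples, which may be technical. Substrate, medium, serum and fluidics station differed together with the state and cannot be told apart from it.

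Actin monomers assemble into filaments that crosslinkers bundle, tropomyosins coat and non-muscle myosin pulls on. At focal adhesions, integrins that hold the matrix are tied to these filaments through talin, vinculin, paxillin, the kindlins and a set of LIM-domain proteins. RhoA activates the ROCK kinases and the formin Diaph1, and the resulting drop in free actin monomer lets the MRTF coactivators work with SRF, a transcription factor that binds the CArG box in many actin cytoskeleton genes. In the mammary gland the contractile myoepithelial cells are known for their dense actin filaments.

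The CArG box, searched as CC, then 6 bases that are each A or T, then GG, has the same form on both strands. RefSeq promoters of build GRCm38.p6, from 250 bases before to 50 after each start, were matched for 41 of the 48 genes, and Parva, Actb, Tgfb1i1, Csrp2, Diaph1, Rock1 and Pxn were not matched. A box was found in 7 of the 41 genes, or 17.1%, against 1.81% of the 27025 genes in the RefSeq table. The genes were chosen with earlier results of these data known and several are textbook SRF targets, so this share is a description. The windows below, 60 bases each and printed 5' to 3' on the gene's strand, are those of the 7 genes, with the box in capitals, so that the sequence can be read beside each gene's values. No box overlapped a TATAAA match.
Actg1 (chr11:120348556-120348615, minus strand, box 90 bases before the start, did not pass): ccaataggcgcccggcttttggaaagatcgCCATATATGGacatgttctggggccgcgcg
Cnn2 (chr10:79988514-79988573, plus strand, box 56 bases before the start, higher): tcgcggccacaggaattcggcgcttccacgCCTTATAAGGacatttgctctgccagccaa
Fermt2 (chr14:45530240-45530299, minus strand, box 204 bases before the start, lower): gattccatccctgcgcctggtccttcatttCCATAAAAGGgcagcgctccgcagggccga
Fhl1 (chrX:56779551-56779610, plus strand, box 102 bases before the start, higher): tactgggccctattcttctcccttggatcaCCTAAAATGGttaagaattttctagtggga
Fhl2 (chr1:43163963-43164022, minus strand, box 31 bases before the start, higher): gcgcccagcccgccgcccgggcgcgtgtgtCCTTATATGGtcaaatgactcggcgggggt
Fhl2 (chr1:43196828-43196887, minus strand, box 96 bases before the start, higher): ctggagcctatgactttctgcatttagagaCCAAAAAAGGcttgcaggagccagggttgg
Srf (chr17:46556215-46556274, minus strand, boxes 82 and 62 bases before the start, did not pass): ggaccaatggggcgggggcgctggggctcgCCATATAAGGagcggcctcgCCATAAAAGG
Vcl (chr14:20929148-20929207, plus strand, box 227 bases before the start, higher): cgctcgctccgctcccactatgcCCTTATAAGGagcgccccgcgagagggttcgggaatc
Of the genes with a box, Cnn2, Fhl1, Fhl2 (at both of its starts) and Vcl were higher in the differentiated samples and Fermt2 was lower, while Actg1 and Srf itself did not pass the test. By outcome, a box was found in 4 of 10 higher genes with a promoter, 1 of 5 lower genes and 2 of 23 genes that did not pass. The MCAT motif CATTCC, bound by TEAD factors and searched on both strands, was in 34.1% of the 41 promoters, against 16.6% of all genes, and TATAAA was in 22% against 15.7%. Split the same way, MCAT was in 3 of 10 higher genes, 2 of 5 lower genes and 7 of 23 that did not pass. TATAAA was in 5 of 10, 0 of 5 and 4 of 23, so an uneven split was not particular to the CArG box. Whether any of these motifs goes with the direction of change was not tested.

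In the differentiated samples 12 of the 45 genes were higher and 6 were lower, with limma at an adjusted p of 0.05 over all probe sets of a chip. The share that passed was 40%, against 18.5% of all tested genes. By direction 26.7% were higher, against 9.23% of all genes, and 13.3% were lower, against 9.27%. All 18 were measured on MOE430A, where 40.9% of 44 genes passed, against 28.1% of all genes shown on that chip. On that chip 27.3% of the 44 were higher, against 14.2% of all its genes, and 13.6% were lower, which is close to the 13.9% of all its genes. At least 2-fold higher were 6 of the 12 (Fhl2, Fhl1, Cnn2, Myh9, Actb and Pdlim5), and Pxn was the 1 lower gene of that size, while 3.16% of all tested genes were higher and 3.93% lower by that much. The median log2 change of the 45 genes was 0.15, and that of all tested genes was 0.04. The 3 values of a state lay wholly to one side of the other state's for 27 of the 45 genes, or 60%, against 39.2% of all genes. All 27 were on MOE430A, where 61.4% of the 44 genes and 47.5% of all genes did so. RNA was taken from whole samples, so fewer cells of a type and less RNA per cell cannot be told apart.

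**Figure D1:**
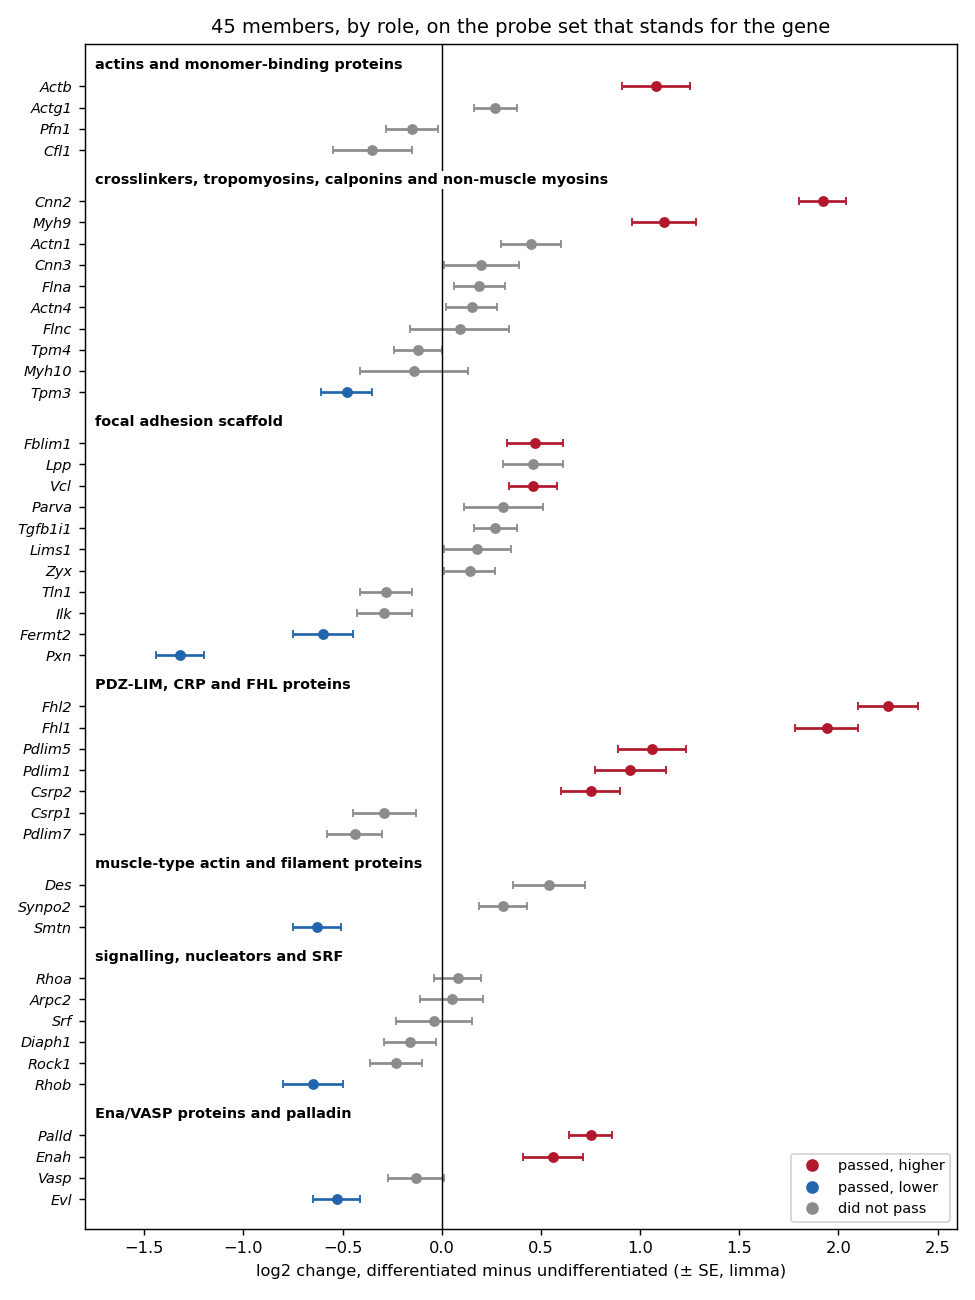
The log2 change (x axis, differentiated minus undifferentiated, with limma's SE) of the 45 tested genes, grouped by role, each on the probe set that stands for it. The PDZ-LIM, CRP and FHL group holds 5 of the 12 genes that were higher (red), and the genes that did not pass (grey) lie between -0.44 and 0.54. With arrays scaled on the hybridisation controls 9 of the 12 higher genes fall below 0.

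These changes are relative to the bulk of each array, since the deposited arrays share a trimmed mean. The hybridisation controls, added to the labelled RNA in fixed amounts, read 2.88-fold, 1.44-fold and 2.85-fold above the undifferentiated mean in differentiated samples 1, 2 and 4 on MOE430A, and 0.913-fold, 1.05-fold and 1.04-fold in undifferentiated samples 1, 2 and 4. With arrays scaled on them the median log2 change of all tested genes was -1.03, and 2 of the 45 genes were higher and 28 lower. All 18 genes that passed stayed on the same side of that median, which is nearly fixed in advance, since scaling whole arrays moves all genes and their median together. Actb, Myh9, Pdlim1, Pdlim5, Csrp2, Palld, Enah, Fblim1 and Vcl had a log2 change below 0 on that scale, between -0.72 and -0.07. Cnn2 lost its call at 0.75 (adjusted p 0.0793 with limma, range over its alternatives 4.11e-07 to 0.0793). The poly-A controls are made to be added to RNA before labelling, and whether they were added here was not checked. Scaled on them, 7 genes were higher and 1 lower, and 8 of the 18 kept their call: Fhl2, Fhl1, Cnn2, Myh9, Actb, Pdlim5, Pdlim1 and Pxn. Arrays of undifferentiated sample 1 were scanned in a session of their own. With the session as a block 12 genes were higher and 4 lower: Vcl, Fblim1, Rhob and Tpm3 lost their call (adjusted p 0.0653 to 0.0972), and Des and Parva passed as higher (0.0347 and 0.0490). Within the other session 11 were higher and 4 lower.

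The cell type markers did not all follow the labels. Of the myoepithelial markers Krt5, Krt14, Krt17, Trp63, Myh11 and Oxtr, and of the luminal markers Krt19, Cdh1, Gata3, Elf5 and Esr1, none exceeded the background on any array. Of the other luminal markers Krt8 was above it in all 6 samples and Krt18, Epcam, Cldn3 and Cldn4 in some. Of the 6 luminal markers tested 0 passed with limma, 2 (Krt18 and Esr1) had an unadjusted p below 0.05, and the summed signal of the 4 tested on MOE430A was 1971 to 3091 in differentiated and 2708 to 3690 in undifferentiated samples. All 10 fibroblast and mesenchymal markers were above it in every sample, with a summed signal of 617915 to 835209 in differentiated and 389206 to 398463 in undifferentiated samples, and 6 of the 10 were higher and 2 lower. The myoepithelial markers that were detected, Acta2, Mylk and Cnn1, were higher, and the summed signal of that list, over the 6 genes tested on MOE430A, was 48785 to 63294 in differentiated and 7245 to 7644 in undifferentiated samples. Most of that sum was Acta2, at 43876 to 54025 in differentiated and 5374 to 5860 in undifferentiated samples. Of the skeletal muscle markers 9 of 11 were never above the background, and Ckm was higher by a log2 change of 0.84 (adjusted p 0.0182 with limma). The summed signal of the 3 tested on MOE430A was 1573 to 2465 in differentiated and 1060 to 1295 in undifferentiated samples. Of the adipocyte markers Adipoq, Cidec and Pparg were never above it, Fabp4 did not pass, and Lpl was higher, at 71811 to 91534 in differentiated and 8165 to 10070 in undifferentiated samples. Of 6 tested leukocyte markers Cd14, Lyz2 and Csf1r were higher and none was lower (summed signal 8040 to 11512 in differentiated and 5306 to 6644 in undifferentiated samples), while Ptprc and Itgam were never above the background. Of the endothelial markers Kdr was higher and Pecam1 and Tek lower (summed signal 3008 to 3968 in differentiated and 3306 to 3995 in undifferentiated samples), and of the pericyte markers Cspg4 was lower (summed signal 3912 to 4549 in differentiated and 5103 to 6029 in undifferentiated samples). The part of these shifts in cell type markers in the results was not tested.

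Actb, which encodes cytoplasmic beta-actin, was higher in the differentiated samples while Actg1, its gamma-actin relative, did not pass. Actb read 155532, 125428 and 160977 signal units in the differentiated samples, against 77295, 58241 and 73242 in the undifferentiated samples. No differentiated value overlapped an undifferentiated one. The log2 change was 1.08 (SE 0.17, adjusted p 0.00405 with limma, 2.12-fold), and the other Actb probe set gave 1.13. The chip's own control probe sets for Actb, from the 3' end, the middle and the 5' end of the transcript, gave 1.94-fold, 2.08-fold and 1.99-fold on MOE430A, and 1.65-fold, 1.86-fold and 1.58-fold on MOE430B. The 3' over 5' ratio of these control probe sets, a measure of RNA integrity, was 1.02 to 1.13 in differentiated and 0.985 to 1.29 in undifferentiated samples on MOE430A, and 1.11 to 1.20 in differentiated and 1.05 to 1.14 in undifferentiated samples on MOE430B. Quantile normalization of the arrays, which gives all arrays of a chip the same distribution, cut the Actb change to 0.15 (adjusted p 0.575, range over its alternatives 1.43e-04 to 0.805). Without differentiated samples 1 and 4 it was not called either (adjusted p 0.0550).

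Actg1 read 58977, 58498 and 58287 in the differentiated samples, against 48120, 47804 and 49487 in the undifferentiated samples. The states did not overlap, yet the log2 change was 0.27 and the adjusted p 0.104 (limma, SE 0.11). Cfl1, the filament-severing cofilin, did not pass on its brightest probe set (log2 change -0.35), although another of its probe sets was lower, at -0.55 (adjusted p 0.0236). Pfn1, which delivers monomers to growing ends, did not pass at -0.15. Within each array the Actb over Actg1 ratio was 0.81 higher on the log2 scale in the differentiated samples, and the samples of the 2 states did not overlap.

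Of the crosslinkers, tropomyosins, calponins and non-muscle myosins, 2 of 10 were higher and 1 was lower, with a median log2 change of 0.17. The share that passed, 30%, was close to the 28.1% of all genes shown on MOE430A. Cnn2, a calponin of non-muscle cells that binds actin, read 17226, 16239 and 17252 in the differentiated samples, against 4160, 4227 and 4830 in the undifferentiated samples. This was a log2 change of 1.92 (SE 0.12, adjusted p 9.06e-05, 3.80-fold). All differentiated values were more than 3 times the highest undifferentiated one. Its relative Cnn3 did not pass on any of 6 tested probe sets, of which the brightest gave 0.20 and 5 gave changes below 0. Actn4, Flna, Flnc, Tpm4 and Myh10, the heavy chain of non-muscle myosin IIB, did not pass either.

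Myh9, the heavy chain of non-muscle myosin IIA, read 38134, 26948 and 33135 in the differentiated samples, against 13762, 14775 and 16300 in the undifferentiated samples. The log2 change was 1.12 (SE 0.16, adjusted p 0.00320), and the 4 Myh9 probe sets tested on MOE430A were all higher, at 0.67 to 1.28. The same chip's probe sets for Actn1, the crosslinker alpha-actinin 1, differed: the brightest did not pass (0.45, adjusted p 0.0626), and 2 others were higher, at 0.98 and 0.68. Tpm3, a tropomyosin, read 10657, 12225 and 12616 in the differentiated samples, against 15948, 16097 and 17324 in the undifferentiated samples. It was lower by a log2 change of -0.48 (SE 0.13, adjusted p 0.0297), and its other 2 probe sets were lower as well, at -0.73 and -0.91. The call on the brightest probe set was lost without undifferentiated sample 1, 2 or 4 or differentiated sample 1 or 2 (adjusted p up to 0.0994).

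**Figure D2:**
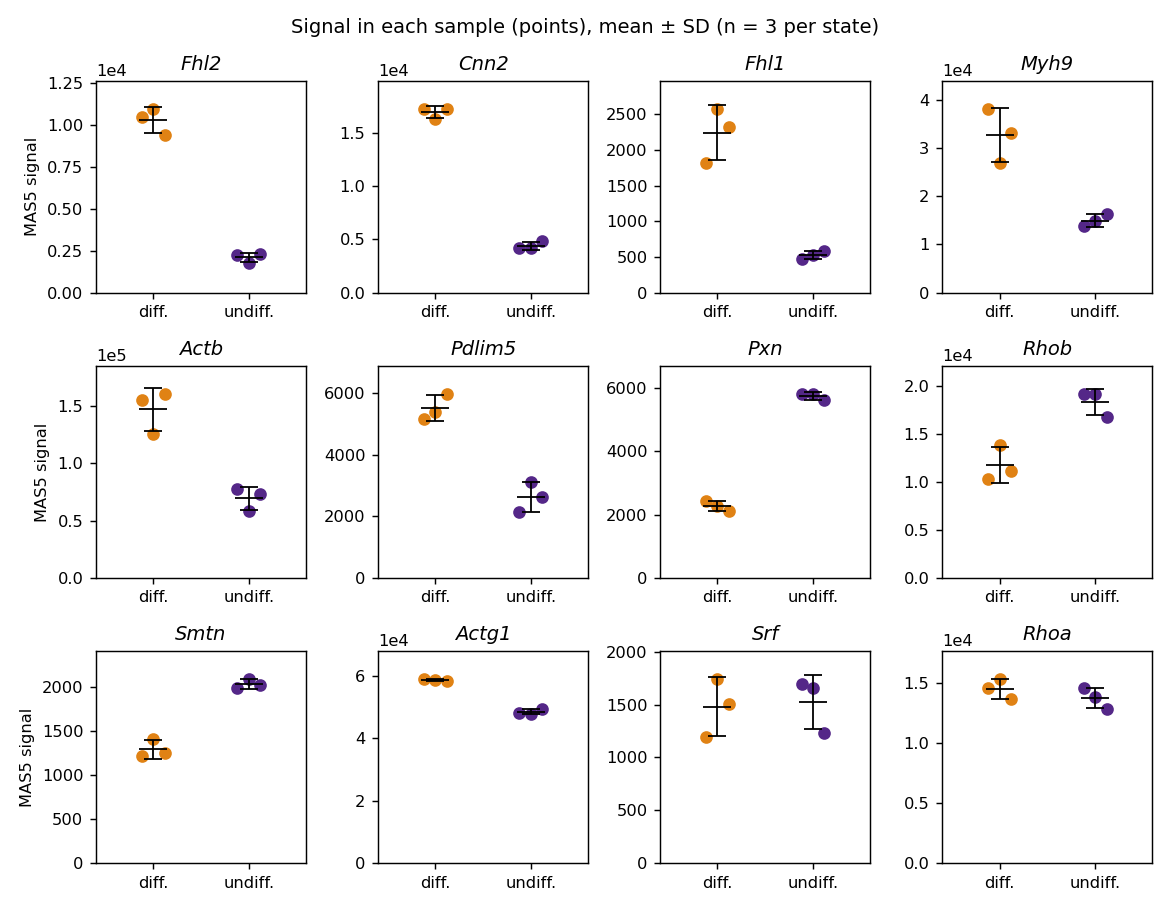
Signal of 12 of the genes in each sample (y axis, linear MAS5 units starting at 0), with the mean and SD of the 3 samples per state, differentiated on the left. The states are wholly apart for Fhl2, Cnn2, Fhl1, Myh9, Actb, Pdlim5, Pxn, Rhob, Smtn and Actg1, and overlap for Srf and Rhoa.

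In the focal adhesion scaffold 2 of 11 genes were higher, 2 were lower and 7 did not pass, with a median of 0.18. In this small group 36.4% passed, against 28.1% of all genes shown on MOE430A. Vcl, vinculin, which links talin to actin and bears load at adhesions, read 13300, 14943 and 14878 in the differentiated samples, against 10636, 10156 and 10534 in the undifferentiated samples. Every differentiated value was above every undifferentiated one, and the log2 change was 0.46 (SE 0.12, adjusted p 0.0274). The other Vcl probe set was higher too, at 0.72. Fblim1, migfilin, which binds filamin and kindlin-2, read 5717, 5340 and 4376 in the differentiated samples, against 3721, 3661 and 3610 in the undifferentiated samples, a log2 change of 0.47 (SE 0.14, adjusted p 0.0424). The Vcl call was lost without undifferentiated sample 1, 2 or 4 or differentiated sample 2 or 4 (adjusted p up to 0.0883), and the Fblim1 call without undifferentiated sample 1, 2 or 4 or differentiated sample 1 or 2 (up to 0.117).

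Pxn and Fermt2 were lower in the differentiated samples. Pxn, paxillin, the adaptor that docks kinases at focal adhesions, read 2425, 2263 and 2100 in the differentiated samples, against 5805, 5816 and 5606 in the undifferentiated samples. This was the steepest fall among the probe sets shown for the 45 genes, with a log2 change of -1.32 (SE 0.12, adjusted p 3.83e-04, limma), and the states were far apart. A probe set of lower signal gave -0.36 and did not pass, and a dim one was higher, at 0.49 (adjusted p 0.0438), with 2 of 3 differentiated and 1 of 3 undifferentiated values above the background. Pxn was the only gene of the set with probe sets called in opposite directions. Fermt2, kindlin-2, which activates integrins, read 5515, 6979 and 6148 in the differentiated samples, against 8301, 10055 and 10005 in the undifferentiated samples. It was lower by a log2 change of -0.60 (SE 0.15, adjusted p 0.0235), a call lost without undifferentiated sample 2 or 4 or differentiated sample 1 or 4 (adjusted p up to 0.0832). Talin (Tln1, -0.28), integrin-linked kinase (Ilk, -0.29), zyxin (Zyx, 0.14), Lpp (0.46), Parva (0.31), Lims1 (0.18) and Tgfb1i1 (0.27) did not pass.

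The PDZ-LIM, CRP and FHL proteins, LIM-domain proteins that bind actin filaments or alpha-actinin, had a median log2 change of 0.95, the highest of the role groups. Of 7 tested 5 were higher and none was lower, or 71.4%, against 28.1% of all genes shown on MOE430A. With arrays scaled on the hybridisation controls, though, the log2 changes of Pdlim5, Pdlim1 and Csrp2 turned to -0.10, -0.22 and -0.42. Fhl2, a LIM-only cofactor found at adhesions and in the nucleus, read 10462, 10957 and 9413 in the differentiated samples, against 2224, 1788 and 2302 in the undifferentiated samples. Its log2 change of 2.25 (SE 0.15, adjusted p 9.37e-05, 4.77-fold) was the highest of the 45 genes.

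Fhl1, a relative of Fhl2 known from skeletal muscle, read 1824, 2582 and 2325 in the differentiated samples, against 466, 524.2 and 579.5 in the undifferentiated samples. Only 1 undifferentiated value was above the background, so the size of the log2 change of 1.94 (SE 0.16, adjusted p 2.90e-04) is uncertain. Pdlim5, which binds alpha-actinin and protein kinase C, read 5169, 5375 and 5975 in the differentiated samples, against 2132, 3126 and 2617 in the undifferentiated samples. The states did not overlap, and the log2 change was 1.06 (SE 0.17, adjusted p 0.00432). Pdlim1 (0.95, adjusted p 0.00894) and Csrp2, a member of the CRP family (0.75, adjusted p 0.0111), were higher as well. Csrp2 lost its call without differentiated samples 1 and 4 (adjusted p 0.0579). Pdlim7 (-0.44) and Csrp1 (-0.29) did not pass.

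Among the muscle-type proteins Smtn, smoothelin, a smooth muscle protein, was lower. It read 1211, 1410 and 1248 in the differentiated samples, against 1985, 2092 and 2017 in the undifferentiated samples. The log2 change was -0.63 (SE 0.12, adjusted p 0.00939), and it was not called without differentiated samples 1 and 4 (adjusted p 0.0953). Des, desmin, the intermediate filament of muscle, read 1558, 1455 and 1212 in the differentiated samples, against 1195, 830.1 and 835.9 in the undifferentiated samples. Those values do not overlap, but the log2 change of 0.54 did not pass (SE 0.18, adjusted p 0.0626). Synpo2 was below the background on all 6 arrays and did not pass either.

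Rhob, an inducible small GTPase of endosomes, read 10278, 13802 and 11149 in the differentiated samples, against 19147, 19078 and 16762 in the undifferentiated samples. It was lower by a log2 change of -0.65 (SE 0.15, adjusted p 0.020), a call lost without undifferentiated sample 1 or 2 or differentiated sample 4 (adjusted p up to 0.0691). Rhoa, the GTPase that drives stress fibres, read 14590, 15350 and 13665 in the differentiated samples, against 14558, 13867 and 12830 in the undifferentiated samples, and its log2 change of 0.08 did not pass (SE 0.12, adjusted p 0.653).

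Srf read 1193, 1744 and 1506 in the differentiated samples, against 1691, 1655 and 1232 in the undifferentiated samples. The ranges overlap almost wholly, and the log2 change was -0.04 (SE 0.19, adjusted p 0.880). Diaph1 (-0.16) and Arpc2 (0.05) did not pass. Rock1 did not pass on its brightest probe set (-0.23), and another of its probe sets was lower, at -0.47 (adjusted p 0.0474).

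Of the Ena/VASP proteins, which extend filament ends, and palladin, an actin-binding scaffold, 2 of 4 were higher and 1 was lower. With only 4 genes that is 75%, against 28.1% of all genes shown on MOE430A. Palld read 8168, 8128 and 8223 in the differentiated samples, against 4833, 5003 and 4693 in the undifferentiated samples, a log2 change of 0.75 (SE 0.11, adjusted p 0.00346). Its 3 probe sets tested on MOE430B gave 0.17, 0.01 and -0.02 and did not pass. Enah read 2112, 2706 and 2217 in the differentiated samples, against 1726, 1518 and 1444 in the undifferentiated samples, a log2 change of 0.56 (SE 0.15, adjusted p 0.0287). Evl read 1326, 1397 and 1239 in the differentiated samples, against 1811, 1908 and 2099 in the undifferentiated samples, a log2 change of -0.53 (SE 0.12, adjusted p 0.0196). On the probe sets shown, Enah and Evl, relatives with the same domains, thus moved in opposite directions, and Vasp did not pass (-0.13). The fall of Evl rests on that probe set, since its other tested one on MOE430A and its tested one on MOE430B each gave -0.06 and did not pass. Of 5 tested Enah probe sets 3 were higher and 2 did not pass, and a dim one of these on MOE430B gave -0.48. The Enah call was lost without undifferentiated sample 2 or 4 or differentiated sample 2 or 4 (adjusted p up to 0.0975), and the Evl call without undifferentiated sample 2 or 4 or differentiated sample 4 (up to 0.0732).

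Probe sets of the same gene were not always alike. Of 31 genes with more than 1 tested probe set, 10 had fitted changes of both signs, 4 had every probe set called the same way, and 1 (Pxn) had calls in opposite directions. On MOE430A 24 of 87 probe sets were higher and 10 lower, or 39.1%, against 28.5% of all probe sets of the chip. On MOE430B 0 of 23 passed with limma, 3 had an unadjusted p below 0.05, and 1.83% of all its probe sets passed, 0.714% as higher and 1.12% as lower. Of the 23, 10 exceeded the background on at least 1 array. A suffix of s or x in a probe set's name marks probes that can match other transcripts, and 8 genes are shown on such a probe set: Actg1, Cfl1, Cnn3, Parva, Lims1, Srf, Rhoa and Pxn, whose fall of -1.32 rests on it.

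**Figure D3:**
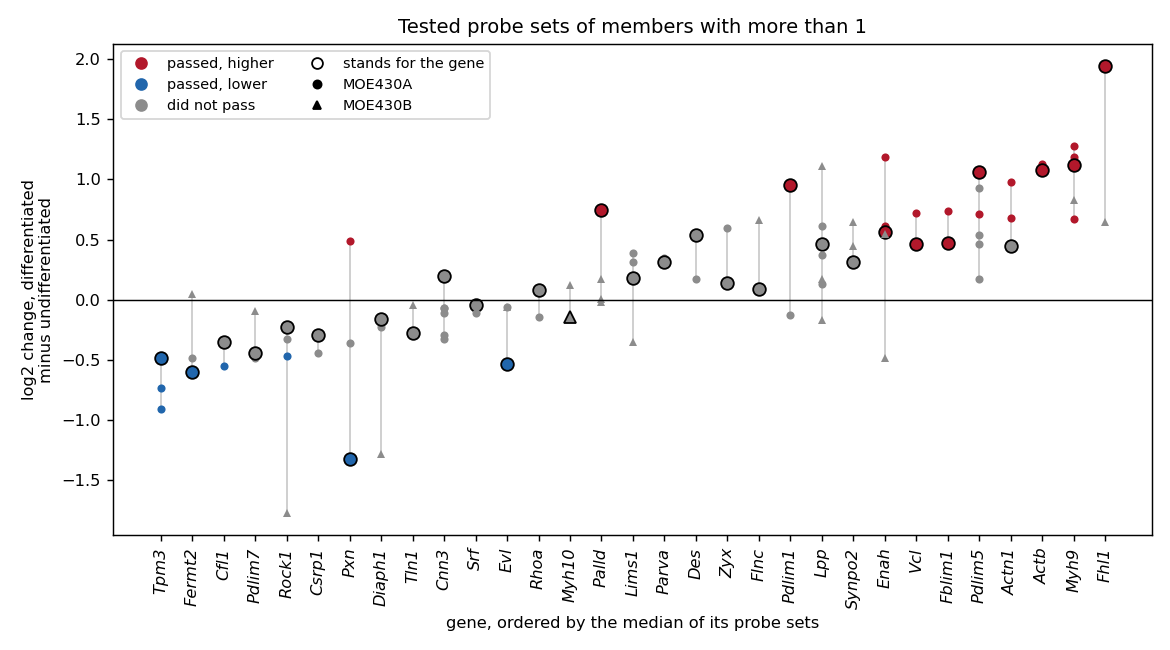
Log2 change (y axis, differentiated minus undifferentiated) of every tested probe set of the 31 genes with more than 1, ordered by their median; circles are MOE430A, triangles MOE430B, and outlined points stand for the gene. Pxn has 1 probe set lower at -1.32 and 1 higher at 0.49, and the 4 Myh9 circles are all higher.

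A factor that scales a whole array leaves the ratio of 2 genes on it nearly unchanged, so ratios between related genes were taken within each array. In all 11 pairs examined the ratio differed between the states with no overlap, with an exact permutation p of 0.1 (two-sided), the smallest that 3 against 3 samples can give, so none can pass 0.05. The pairs were chosen with earlier results of these data known, and 47.5% of single genes on the chip do not overlap either, so the count is a description. The gene with the larger fitted change was put first in each pair, so the shared direction is built in. Some pairs share a gene and are not separate. The log2 ratio of Cnn2 over Cnn3 was higher by 1.72 in the differentiated samples, Pdlim5 over Pdlim7 by 1.5, Pdlim1 over Pdlim7 by 1.39, Enah over Evl by 1.09 and Csrp2 over Csrp1 by 1.04. Rhoa over Rhob was higher by 0.73, Enah over Vasp by 0.69, Vasp over Evl by 0.40, Tpm4 over Tpm3 by 0.36 and Actn1 over Actn4 by 0.30. Quantile normalization, which is no single factor, cut Actb over Actg1 to 0.45 and Tpm4 over Tpm3 to 0.18.

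**Figure D4:**
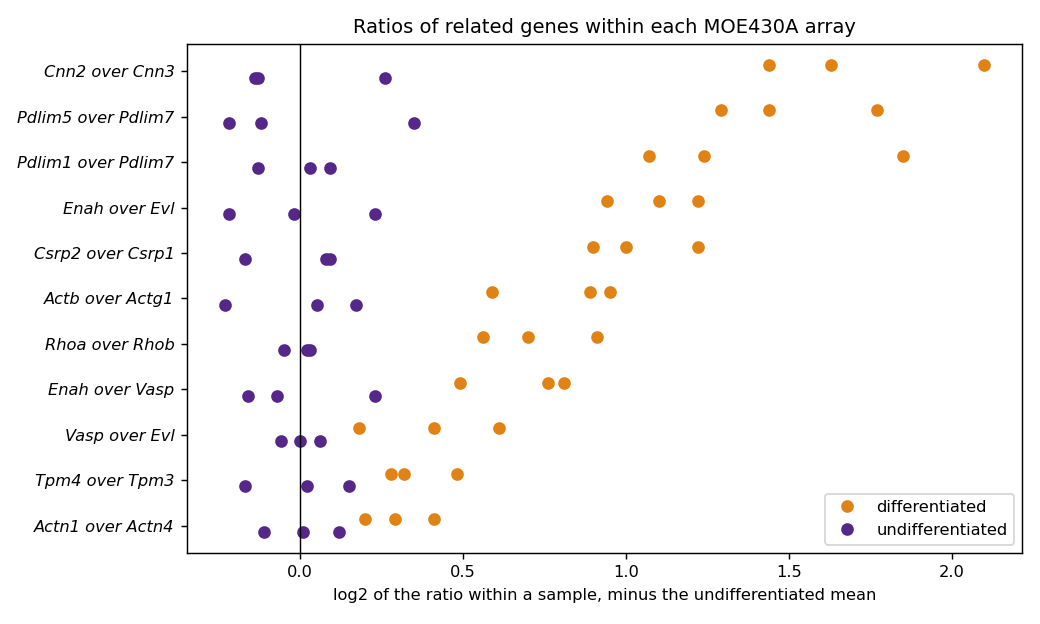
Log2 ratio of related genes within each sample on MOE430A (x axis, relative to the undifferentiated mean), with differentiated samples in orange above undifferentiated samples in purple. In all 11 pairs the 3 differentiated samples lie to the right of the 3 undifferentiated ones, by a mean of 0.30 for Actn1 over Actn4 up to 1.72 for Cnn2 over Cnn3. The side is set by the order of the genes, since the one with the larger fitted change was put first.

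Of 97 further genes of the same pathways 82 were tested, and 14 were higher and 11 lower, or 30.5%, against 18.5% of all genes. On MOE430A 32.4% of 71 passed, close to the 28.1% of all genes shown on that chip. The adhesion adaptors and kinases had 5 of 17 higher and none lower, or 29.4%. The Arp2/3 complex and its activators, which nucleate branched actin, had 3 of 12 lower and none higher, or 25%. Both shares are near the 28.1% of all genes shown on MOE430A. The lower genes of the Arp2/3 list were the activators Wasf1, Nckap1 and Wasf2, and no tested subunit of the complex itself passed. The largest fall there was Wasf1, a WAVE subunit (-1.15, adjusted p 5.30e-04), which read 184.1, 197.9 and 195.8 in the differentiated samples, against 505.9, 537.2 and 517.7 in the undifferentiated samples, with 0 and 1 values above the background in these states, so its size is uncertain.

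Among capping, severing and monomer-binding proteins 2 of 14 were higher and 3 lower, or 35.7%, against 28.1% of all genes shown on MOE430A. Tmsb4x, the monomer-holding thymosin beta-4, was higher by 0.90 (adjusted p 0.00197; -0.28 with arrays scaled on the hybridisation controls), and Capg, a filament-capping protein, was lower by a log2 change of -2.61 (adjusted p 3.58e-05). Capg read 2069, 2198 and 2425 in the differentiated samples, against 14698, 13657 and 13648 in the undifferentiated samples. Of the adhesion adaptors Lims2, a relative of Lims1, had the largest fitted rise, at 1.72 (adjusted p 0.0356). Its size is uncertain, since 2 of 3 differentiated values and 1 of 3 undifferentiated values were above the background. It ran from 1.35 to 2.30 without 1 sample, while Tns1, above the background in all 6 samples, was higher by 1.48 (adjusted p 0.00158). Lims2 lost its call without undifferentiated sample 1 or 2 or differentiated sample 2 or 4 (adjusted p up to 0.111).

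Of 17 bundling and membrane-linking proteins 4 were higher and 3 lower, or 41.2%, against 28.1% of all genes shown on MOE430A. Nexn, nexilin, an actin-binding protein of muscle cells, was at least 2.80-fold higher on MOE430B (adjusted p 0.00837), since all undifferentiated values lay below the background; the call was lost without undifferentiated sample 1, 2 or 4 (adjusted p up to 0.0577). Anln, anillin, which organises the contractile ring of dividing cells, was at least 3.34-fold lower (adjusted p 9.09e-05), with every differentiated value below the background. Of the 6 genes listed as MRTF and SRF cofactors 1 was higher and 2 were lower, or 50% of a short list. The higher one was Filip1l (1.96, adjusted p 0.0298), a filamin-A-interacting protein-like gene that is no cofactor itself. Its size is uncertain, with 1 of 3 undifferentiated values above the background, and it was not called in any fit that left out a sample (adjusted p 0.0539 to 0.124). Elk3, an ETS factor that binds with SRF, was lower by -0.99 (adjusted p 0.00548), while Mrtfa and Mrtfb did not pass.

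**Figure D5:**
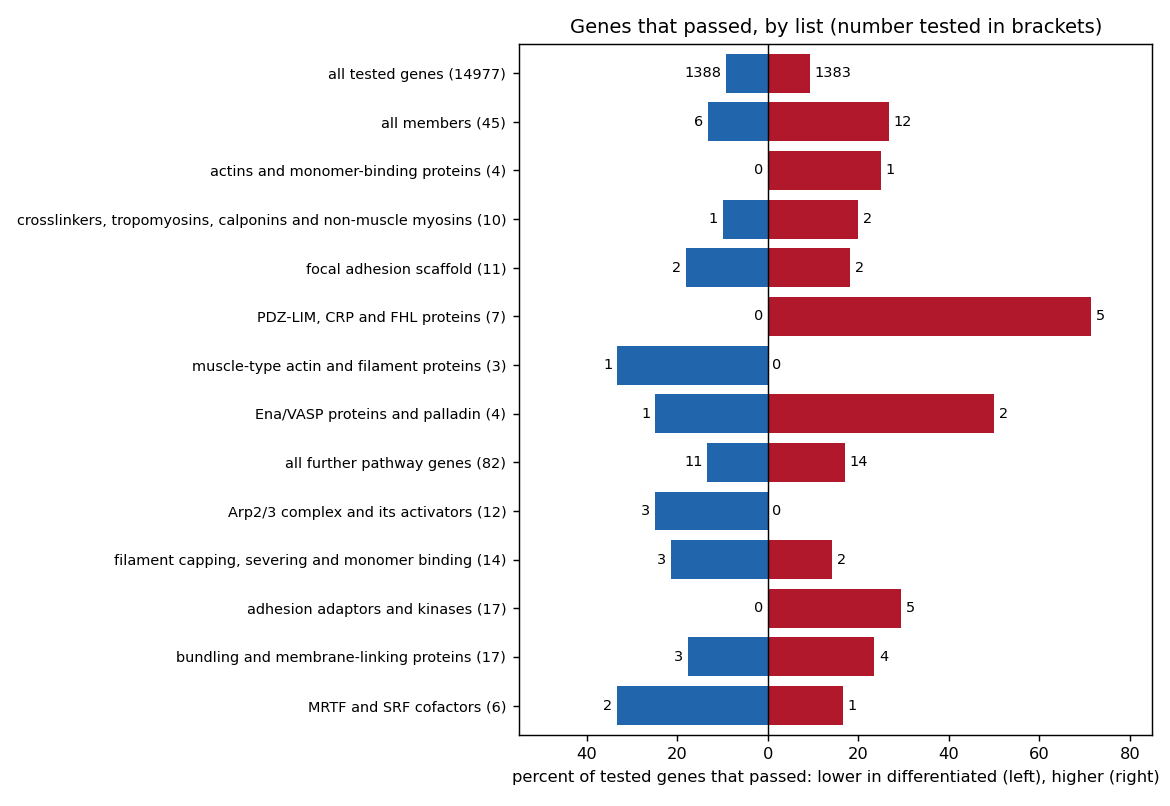
Percent of tested genes in each list shown that were higher (right, red) or lower (left, blue) in the differentiated samples, with the number of genes beside each bar. The PDZ-LIM, CRP and FHL group has 5 of 7 higher, and all tested genes have 1383 of 14977 higher and 1388 lower. With arrays scaled on the hybridisation controls 2 of the 45 genes described here were higher and 28 lower.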

How the data were processed

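Total RNA of 3 differentiated and 3 undifferentiated mammosphere samples was hybridised to MOE430A and MOE430B arrays. Per the submitters' processing notes the deposited values were made with MAS5 (version not given in the sources used here), and they are intensity values on a linear scale, 1 per probe set and array. The arrays in the deposited tables shared a trimmed mean (2% off each end) of 1500.5 on MOE430A and 1500.2 on MOE430B. The fluidics station and scan session came from the deposited array records, read as text labels. Probe sets were given symbols through the platform tables and RefSeq (GRCm38.p6).

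For each chip, log2 of the signal plus 5% of the trimmed mean was fitted with limma 3.58.1 in R 4.3.3 (lmFit and eBayes) over probe sets with a mean signal of at least 20% of it, 15939 on MOE430A and 17915 on MOE430B, and adjusted by Benjamini and Hochberg over each chip. A gene is shown by its brightest tested probe set on MOE430A, else on MOE430B, and fold changes are on that offset scale. As background each array was given its brightest trpn control probe set (515.5 to 829.9 signal units for MOE430A, 1674 to 2995 for MOE430B), and a ratio against a state wholly below it is a lower bound. The number of arrays limits the precision.

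The genes, lists and alternatives were chosen with earlier results of these data known. Named by sample were up to 3 rises and 3 falls that passed in each role group, with Actb, Actg1, Srf, Rhoa, Vcl, Des, Smtn and any gene with opposite calls; from each further list the largest rise and fall were named, except 1 list that is not reported here. The alternatives were other scalings, offsets, filters, a trend prior, the sample number and scan session as blocks, a mean over probe sets, and samples left out. On simulated data with few changed probe sets, the fit missed most of the smaller changes on MOE430A and every change on MOE430B. Far more probe sets passed in the data, 28.5% on MOE430A, which eases the adjusted threshold. The simulated misses therefore do not measure what the fit missed here. With 3 samples per state, a gene that did not pass may still differ between the states. Same-numbered samples of the states did not deviate together (correlations of -0.02 to 0.05). With 3 arrays per state these values show no pairing by number but cannot exclude one.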

Additional observations from a re-analysis of the deposited data

How the results depend on the processing

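Of the 18 genes that passed, Cnn2, Myh9, Pxn, Pdlim1, Pdlim5, Fhl1 and Fhl2 kept their call and direction under each alternative other than hybridisation control scaling, and 11 kept them in every fit that left out 1 sample. Leaving out 1 sample gave 9 to 12 higher and 2 to 6 lower genes, 17 to 26 higher and 4 to 9 lower MOE430A probe sets, 8 to 13 higher and 8 to 10 lower further pathway genes, and a median log2 change of 0.12 to 0.22. Without differentiated samples 1 and 4 there were 7 higher and 1 lower genes, 15 and 3 probe sets on MOE430A, and 5 and 7 pathway genes. The lone sample left is then assumed to vary like the other state's. With the poly-A controls as the scale these were 7 and 1, 13 and 2, and 9 and 6. With the hybridisation controls they were 2 and 28, 2 and 50, and 1 and 54, with 1 probe set lower on MOE430B and a median of -1.03. Under that scale the log2 change turned to -0.10 for Actb, -0.91 for Actg1, -0.73 for Actn1, -1.03 for Actn4, -0.99 for Flna, -1.05 for Flnc, -0.98 for Cnn3, -0.07 for Myh9, -0.72 for Vcl, -1.04 for Zyx, -0.71 for Lpp, -0.69 for Fblim1, -0.84 for Parva, -0.99 for Lims1, -0.90 for Tgfb1i1, -0.22 for Pdlim1, -0.10 for Pdlim5, -0.42 for Csrp2, -0.57 for Des, -0.71 for Synpo2, -1.10 for Rhoa, -1.14 for Arpc2, -0.58 for Enah, -0.43 for Palld, -0.03 for Rnd3 and -0.28 for Tmsb4x. By construction that scale lowers every gene of the differentiated arrays by a like amount. Changes near 0 turned sign elsewhere: Actg1 to -0.30 and Arpc2 to -0.12 with quantile normalization, Myh10 to 0.01 with poly-A scaling, Srf to 0.03 with the scan session as a block, and, in fits without 1 sample, Flnc ranged between -0.12 and 0.28, Arpc2 between -0.10 and 0.14 and Srf between -0.18 and 0.10, and Srf to 0.20 and Diaph1 to 0.01 without differentiated samples 1 and 4. The cause was not tested. With the sample number as a replicate block 9 genes were higher and 4 lower, 6 MOE430A probe sets were lower and 9 pathway genes were higher. Whether the numbers pair the samples is not known. With the scan session as a block 5 MOE430A probe sets were lower and 9 pathway genes higher. Averaging the probe sets of a gene gave 17 lower pathway genes. A filter on the trpn controls, and a trend and robust prior, each gave 1 higher MOE430B probe set. On MOE430B 10 of 23 probe sets of these genes exceeded the background on any array, which limits what that chip can show.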
